A study of Mus musculus with 8 samples.

Results

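The dystrophin glycoprotein complex was examined in mouse gastrocnemius, the large calf muscle, through 8 of its genes: Dmd, Utrn, Sgca, Sgcb, Sgcd, Dag1, Sntb1 and Dtna. Every probe set whose only gene symbol in the platform annotation was one of these genes was taken, which gave 29 of the 45037 probe sets that are not array controls. Total RNA from 8 muscle samples was hybridised to Affymetrix arrays, 1 array per sample, in 2 groups of 4. No label says whether the samples come from separate animals. The GR_KO samples carry the genotype label GR KO, and the series' design text writes the knockout of the glucocorticoid receptor as GR(i)skm-/-. The control samples are labelled wild type. All 8 samples share the strain background C57/Bl6J, and no treatment is labelled for either group. The labels do not state the age of the mice, how the deletion was driven or which cells keep the receptor gene. The glucocorticoid receptor, encoded by Nr3c1, is a hormone-activated transcription factor, and the comparison asks whether transcripts of the complex differ in muscle when its gene is disrupted.

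The complex links the actin cytoskeleton of the muscle fibre to the laminin of the surrounding basement membrane and protects the membrane during contraction. Dystrophin binds actin inside the fibre and dystroglycan at the membrane, the sarcoglycans stabilise that link, and syntrophins and dystrobrevin form a cytoplasmic scaffold that holds signalling proteins such as neuronal nitric oxide synthase. Loss of dystrophin or of a sarcoglycan causes muscular dystrophy. Utrophin is the close relative of dystrophin that sits at the neuromuscular junction of adult fibres.

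The values are MAS5 signals, a linear measure of probe set brightness. Signals of different probe sets depend on their probes, so values were compared between arrays and not between probe sets. Fold changes are log2 values of GR_KO minus control. The median signal over the tested probe sets was 19.4, and 22 of the 29 were brighter than that on average while 7 were not. All 8 genes had at least 1 of the 22. All 12 myofibre markers examined, such as the muscle creatine kinase gene Ckm and the sarcomeric alpha-actinin gene Actn2, were also above that median. Their summed signal ranged from 104817 to 162779 on GR_KO arrays and from 118195 to 240374 on control arrays. The highest sum belonged to control replicate 4, and the other controls lay between 118195 and 129644. Spike-in signals of that array were also 3.17 times those of the other controls. Results for the 8 genes that rest on it are therefore given without it too.

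Nr3c1, the targeted gene, had a log2 fold change below 0 at all 6 of its probe sets, and the groups did not overlap at 2 of them. At probe set 1460303_at, Nr3c1 gave signals of 134, 79, 76 and 94 in GR_KO muscle, against 377, 307, 307 and 352 in control muscle. Fkbp5, a known glucocorticoid target, had signals of 84, 76, 57 and 88 in GR_KO muscle at probe set 1416125_at, against 345, 225, 375 and 242 in control muscle. At both of these probe sets the groups did not overlap. At the other Nr3c1 probe set without overlap, 1457635_s_at, the log2 fold change was -1.96. The groups overlapped at the brightest Nr3c1 probe set, 1421867_at (-1.07), and at 1431378_at (-1.34), 1421866_at (-0.38) and 1453860_s_at (-0.32), and which of these lie in the deleted part was not analysed here. In limma over all 45037 probe sets, 0 were past an adjusted p of 0.05 (0% of those tested), and 1944 had an unadjusted p under 0.05. Among the 22518 probe sets above the median signal, 5 were past it (0.0222% of those tested), all lower in GR_KO muscle. The adjusted p in that limma fit was 0.0240 both for Nr3c1 at 1460303_at and for Fkbp5 at 1416125_at.

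No probe set of the complex passed the test. Of the 29, 0 were past an adjusted p of 0.05 in limma (smallest adjusted p = 0.957), as were 0 of the 22 tested above the median signal. On simulated data the fit recovered 18.6% of log2 changes of -1, so changes of that size can go uncalled. At an unadjusted p under 0.05, 3 of the 29 were lower in GR_KO muscle, where 2.28% of all probe sets were, and 0 were higher, where 2.04% of all were. Of these 3, 2 belonged to Sntb1 and the third to Sgcb. The groups did not overlap at 2 of the 29, both lower in GR_KO muscle, where 1.02% of all probe sets were, and at 0 in the higher direction, where 0.939% of all were. Several probe sets can belong to 1 gene, so these counts are not counts of independent genes. GR_KO muscle had the lower log2 mean at 19 of the 29 probe sets and the higher at 9, and at 1 the log2 means were equal. The median log2 fold change was -0.09, beside -0.01 over all probe sets, of which 51.2% were below 0.

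**Figure D1:**
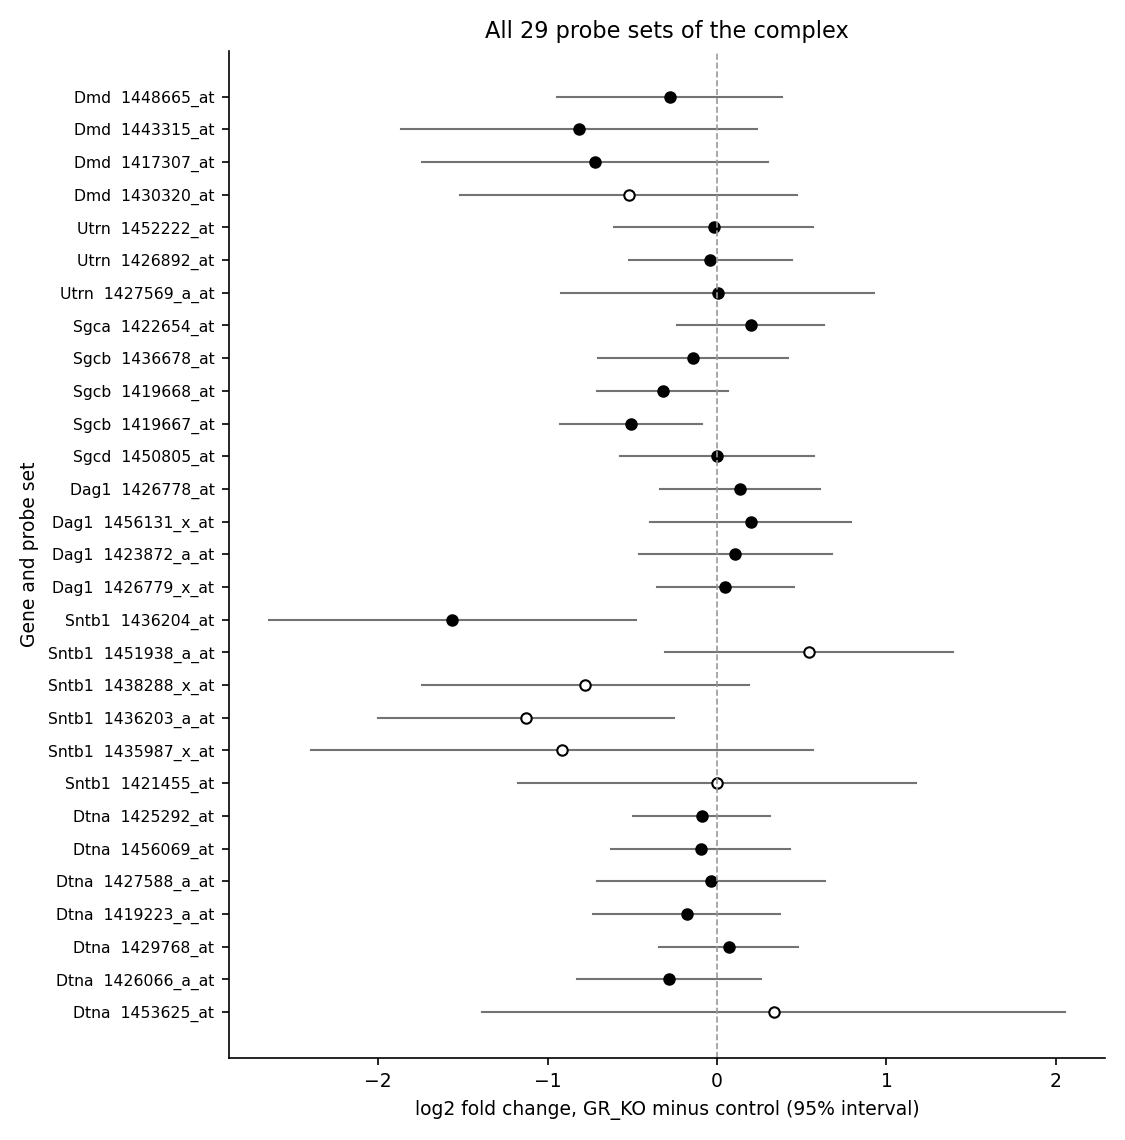
Log2 fold change of GR_KO minus control (horizontal axis) for each of the 29 probe sets (rows, grouped by gene), with the 95% interval of the limma fit. Filled points are the 22 probe sets above the median signal and open points the 7 others. The interval lies wholly below 0 for 3 probe sets, of Sgcb and Sntb1, and none of the 29 passed after adjustment.

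Sntb1, which encodes beta-1 syntrophin, an adaptor that binds dystrophin and holds signalling proteins at the membrane, had the lowest log2 fold change of the complex. At its brightest probe set, 1436204_at, the signals were 21, 9, 34 and 17 in GR_KO muscle, against 63, 45, 30 and 98 in control muscle. GR_KO replicate 3 lay above control replicate 3, so the groups overlapped. The mean was 20.2 ± 10.4 in GR_KO muscle and 59.0 ± 29.3 in control muscle (SD, n = 4 each), and the log2 fold change was -1.56 ± 0.48 (SE, 95% interval from -2.65 to -0.48). In limma the unadjusted p was 0.00975 and the adjusted p 0.957. Without control replicate 4, the brightest control array, the log2 fold change was -1.27 (unadjusted p = 0.0314), and it stayed between -1.86 and -1.23 when any array was left out. With a pseudocount of 16 it was -1.01, and the mean over the 6 Sntb1 probe sets gave -0.64 (unadjusted p = 0.0957 in limma).

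The other Sntb1 probe sets were at or below the median signal and did not all point the same way. Probe set 1436203_a_at, drawn from the same GenBank entry as the brightest, had signals of 12, 8, 11 and 9 in GR_KO muscle, against 26, 14, 18 and 33 in control muscle. Every GR_KO array lay below every control array there (log2 fold change -1.13 ± 0.39, unadjusted p = 0.0172, adjusted p = 0.957 in limma). Without control replicate 4 the log2 fold change there was -0.92 (unadjusted p = 0.0432 in limma). The log2 fold changes of 1438288_x_at and 1435987_x_at were -0.78 and -0.91, with overlapping groups. Probe set 1451938_a_at had the opposite sign, with signals of 26, 17, 16 and 22 in GR_KO muscle against 15, 8, 16 and 18 in control muscle (log2 fold change 0.54 ± 0.38). Probe set 1421455_at lay between 1 and 2 on GR_KO arrays and between 1 and 4 on control arrays, at the limit of the whole-number scale. These dim signals make the size of the difference uncertain, and the region of the transcript that each probe set reads was not analysed here.

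**Figure D2:**
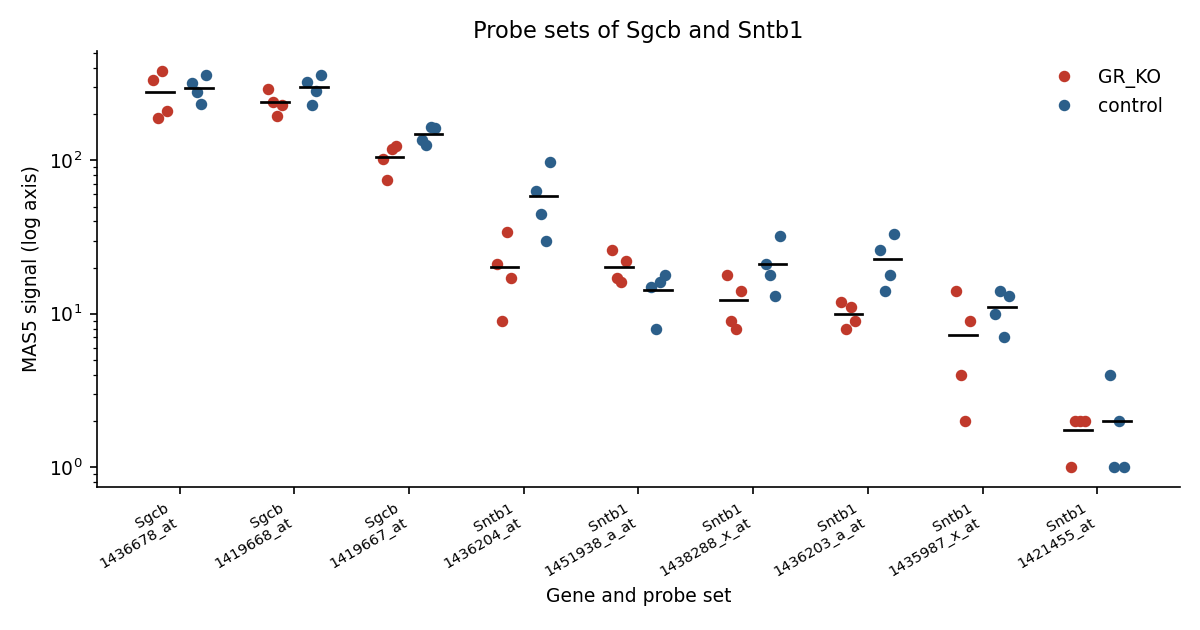
MAS5 signal on each array (log axis) for the 3 probe sets of Sgcb and the 6 of Sntb1, with GR_KO arrays in red, control arrays in blue and the mean of each group as a bar. At Sgcb 1419667_at and Sntb1 1436203_a_at the GR_KO arrays lie below all control arrays, and at Sntb1 1451938_a_at the GR_KO mean is higher.

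Fewer cells of a type and less RNA per cell cannot be told apart in these whole muscles. Markers of other cell types differed between the groups to varying degrees. Endothelial markers such as Cldn5, a tight junction gene, and Kdr, a VEGF receptor gene, were higher in GR_KO muscle for 9 of 10 genes, 4 of them with an unadjusted p under 0.05 and 0 past adjustment in limma. Their summed signal was 4652 to 6523 on GR_KO arrays and 3442 to 4377 on control arrays, with no overlap. Of 7 fibroblast and matrix markers 5 were above 0, with sums of 11390 to 16478 on GR_KO arrays and 6488 to 12895 on control arrays. Of 7 smooth muscle and pericyte markers 5 were above 0, and the sums of the groups overlapped. The Schwann cell, leukocyte and adipocyte lists had median log2 fold changes of 0.35, -0.14 and -0.11, with overlapping sums. Without control replicate 4 the medians were 0.29 for the endothelial, 0.31 for the fibroblast, 0.04 for the smooth muscle, 0.22 for the Schwann cell, -0.05 for the leukocyte and 0.08 for the adipocyte list, and 0.16 for the myofibre list, whose median was -0.08 with it. No endothelial, fibroblast or smooth muscle marker was at 0 on any array. The part of these cells in the values of the complex was not tested.

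Sgcb, Sgca and Sgcd encode beta-, alpha- and delta-sarcoglycan, membrane proteins of a subcomplex beside dystroglycan. Sgcb signals were lower in GR_KO muscle to a degree that depended on the probe set. At 1419667_at they were 102, 75, 119 and 125 in GR_KO muscle, against 136, 127, 165 and 163 in control muscle, so every GR_KO array lay below every control array. The log2 fold change was -0.51 ± 0.19 (SE, 95% interval from -0.93 to -0.09), with an unadjusted p of 0.0229 and an adjusted p of 0.957 in limma. At 1419668_at, drawn from the same GenBank entry, the signals were 291, 241, 195 and 231 in GR_KO muscle, against 325, 231, 286 and 359 in control muscle, and the groups overlapped (log2 fold change -0.32 ± 0.17). At the brightest, 1436678_at, GR_KO arrays had 336, 188, 386 and 211 and control arrays 322, 280, 234 and 361. There the GR_KO arrays spread more widely than the controls, with an SD of 95.9 against 54.6, and the log2 fold change was -0.14 ± 0.25. The mean over the 3 Sgcb probe sets gave -0.32. Without control replicate 4 the log2 fold change was -0.46 at 1419667_at (unadjusted p = 0.0538 in limma). It was then -0.23 at 1419668_at and -0.05 at 1436678_at.

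Sgca signals were 1676, 2481, 2423 and 2403 in GR_KO muscle, against 1944, 2446, 2025 and 1452 in control muscle, at its only probe set, 1422654_at. GR_KO replicate 1 lay apart below the other GR_KO arrays, and control replicate 4 was the lowest of all. The log2 fold change was 0.20 ± 0.19 (SE, 95% interval from -0.24 to 0.63, adjusted p = 0.957 in limma) and 0.06 without control replicate 4. Sgcd was dim at its only probe set, 1450805_at, with signals of 33, 24, 27 and 25 in GR_KO muscle against 34, 26, 29 and 21 in control muscle. The 2 groups covered almost the same range, and the 95% interval of the log2 fold change ran from -0.58 to 0.57. Without control replicate 4 the Sgcd log2 fold change was -0.12.

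The window around the annotated start of Sgcb is shown because Sgcb had the sarcoglycan probe set whose groups did not overlap. It lies at chr5:73647688-73647987 (GRCm38.p6, minus strand, sequence from RefSeq) and holds 250 bases before and 50 after the start. Capitals would mark any match, on either strand, to the glucocorticoid response element (AGAACA, any 3 bases, TGTTCT), its half-site AGAACA, the E-box CAGCTG or the N-box TTCCGG, and it has none.
Sgcb: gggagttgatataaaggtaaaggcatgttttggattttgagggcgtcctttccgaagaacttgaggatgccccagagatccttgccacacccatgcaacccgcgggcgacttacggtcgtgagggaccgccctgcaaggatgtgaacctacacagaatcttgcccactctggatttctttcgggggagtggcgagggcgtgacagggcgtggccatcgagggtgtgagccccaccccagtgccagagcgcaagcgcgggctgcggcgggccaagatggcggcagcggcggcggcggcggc
The table held windows for 6 of the 8 genes, 8 windows in all. Of all 32851 windows of 300 bases in it, 0.00913% held the full element, 19.0% the half-site, 16.3% the E-box and 14.9% the N-box, where a full element also counts as a half-site.

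Dmd encodes dystrophin, the actin-binding core of the complex. All 4 of its probe sets had a log2 fold change below 0, and at all 4 the groups overlapped. The brightest, 1448665_at, had signals of 178, 65, 84 and 92 in GR_KO muscle, against 139, 100, 102 and 137 in control muscle. GR_KO replicate 1 was the highest of the 8 arrays, while the other GR_KO arrays lay below all controls. The log2 fold change was -0.28 ± 0.29 (SE, 95% interval from -0.94 to 0.38, adjusted p = 0.957 in limma). It was -0.57 without GR_KO replicate 1 (unadjusted p = 0.0203) and -0.09 without GR_KO replicate 2, so its size rests on single arrays. Probe set 1443315_at had 87, 84, 51 and 27 in GR_KO muscle against 99, 64, 73 and 209 in control muscle, and its log2 fold change of -0.82 became -0.46 without control replicate 4. Probe set 1417307_at had 98, 44, 31 and 58 in GR_KO muscle against 107, 40, 91 and 147 in control muscle. Its log2 fold change was -0.72 ± 0.45, with a range from -1.09 without control replicate 2 (unadjusted p = 0.0222 in limma) to -0.47 without GR_KO replicate 3, and -0.47 without control replicate 4. The mean over the 4 Dmd probe sets gave -0.58. The fourth, 1430320_at, was below the median signal, between 6 and 16 on GR_KO arrays and between 10 and 15 on control arrays.

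Utrn, the utrophin gene, had nearly equal group means (172.8 ± 54.7 in GR_KO muscle and 175.2 ± 54.2 in control muscle, SD, n = 4 each), with wide spread. At its brightest probe set, 1452222_at, the signals were 253, 141, 135 and 162 in GR_KO muscle, against 185, 132, 136 and 248 in control muscle. GR_KO replicate 1 and control replicate 4 were the high arrays, and the log2 fold change was -0.02 ± 0.26. Its 95% interval, from -0.61 to 0.57, leaves room for a moderate difference in either direction. The other probe sets, 1426892_at and 1427569_a_at, had log2 fold changes of -0.04 and 0.0034. Without control replicate 4 the log2 fold change turned to 0.16 at 1452222_at. It was then -0.04 at 1426892_at and 0.35 at 1427569_a_at.

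Windows around 2 annotated starts of Dmd and 1 of Utrn are shown to set the dystrophin gene beside its relative. The Dmd windows lie at chrX:82948620-82948919 and chrX:85048045-85048344 (plus strand) and the Utrn window at chr10:12861686-12861985 (minus strand), all on GRCm38.p6 with sequences from RefSeq. Capitals mark the half-site AGAACA, read as TGTTCT on the other strand, which starts at position -179 in the upper Dmd window and at -137 in the lower, counted from the start.
Dmd, chrX:82948620-82948919: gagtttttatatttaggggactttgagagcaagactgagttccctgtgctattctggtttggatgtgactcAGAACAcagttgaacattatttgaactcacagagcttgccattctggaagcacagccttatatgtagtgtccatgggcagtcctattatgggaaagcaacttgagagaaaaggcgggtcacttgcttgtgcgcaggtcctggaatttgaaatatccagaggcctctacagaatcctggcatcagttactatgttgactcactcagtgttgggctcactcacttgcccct
Dmd, chrX:85048045-85048344: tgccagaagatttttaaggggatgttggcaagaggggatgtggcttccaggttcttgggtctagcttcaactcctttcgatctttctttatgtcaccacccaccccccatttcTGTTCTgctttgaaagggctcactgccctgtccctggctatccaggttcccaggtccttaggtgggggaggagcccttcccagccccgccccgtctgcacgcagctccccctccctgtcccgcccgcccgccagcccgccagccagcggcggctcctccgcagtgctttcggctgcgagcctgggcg
Utrn, chr10:12861686-12861985: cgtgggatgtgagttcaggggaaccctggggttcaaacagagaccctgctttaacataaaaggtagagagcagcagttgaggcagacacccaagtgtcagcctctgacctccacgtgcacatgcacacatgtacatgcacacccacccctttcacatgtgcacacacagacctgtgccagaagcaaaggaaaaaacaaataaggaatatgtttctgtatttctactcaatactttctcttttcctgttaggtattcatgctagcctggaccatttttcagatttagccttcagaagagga
The half-site was in both Dmd windows and in 0 of the other 6 windows of the complex genes, and the full element, the E-box and the N-box were in 0 of the 8. Of all 32851 windows, 19.0% held the half-site, 0.00913% the full element, 16.3% the E-box and 14.9% the N-box. The half-site is thus common and not particular to Dmd.

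Dag1 encodes dystroglycan, whose glycosylated alpha subunit binds laminin and whose beta subunit binds dystrophin. At 1426778_at, its brightest probe set, the signals were 1498, 1947, 1976 and 1854 in GR_KO muscle, against 1777, 1984, 1950 and 1070 in control muscle. Control replicate 4 lay far below the other controls. The log2 fold change was 0.13 ± 0.21 (SE, 95% interval from -0.34 to 0.61, adjusted p = 0.964 in limma) and turned to -0.07 without that array. The other 3 probe sets, 1456131_x_at, 1423872_a_at and 1426779_x_at, had log2 fold changes of 0.20, 0.11 and 0.05, and control replicate 4 was again the lowest of the 8 arrays at each. Without it they were -0.05, -0.12 and -0.08.

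Dtna encodes alpha-dystrobrevin, a cytoplasmic relative of dystrophin that binds syntrophins. At 1425292_at, the brightest of its 7 probe sets, the signals were 478, 526, 349 and 370 in GR_KO muscle, against 557, 468, 449 and 357 in control muscle. The groups overlapped, and the log2 fold change was -0.09 ± 0.18 (SE, 95% interval from -0.50 to 0.31). Without control replicate 4 it was -0.20. The 5 other probe sets above the median signal had log2 fold changes between -0.28 and 0.07. At 4 of these 5, control replicate 4 was the lowest of the 8 arrays. At 2 of the 4 the groups did not overlap without it. At 1456069_at the signals were 280, 287, 228 and 271 in GR_KO muscle against 325, 358, 334 and 167 in control muscle, and the log2 fold change was -0.10, or -0.35 without control replicate 4 (unadjusted p = 0.0126). At 1426066_a_at they were 79, 126, 102 and 105 in GR_KO muscle against 148, 133, 153 and 78 in control muscle, with -0.28, or -0.51 without it (unadjusted p = 0.0175). At 1419223_a_at and 1429768_at the log2 fold changes without control replicate 4 were -0.36 and -0.08. Leaving that array out, the groups did not overlap at 4 of the 29 probe sets of the complex, all lower in GR_KO muscle, where 1.9% of all probe sets were, and at 0 in the higher direction, where 2.06% were. The setting was chosen after the data had been seen. The dim Dtna probe set 1453625_at lay between 0 and 9 on GR_KO arrays and between 2 and 5 on control arrays.

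**Figure D3:**
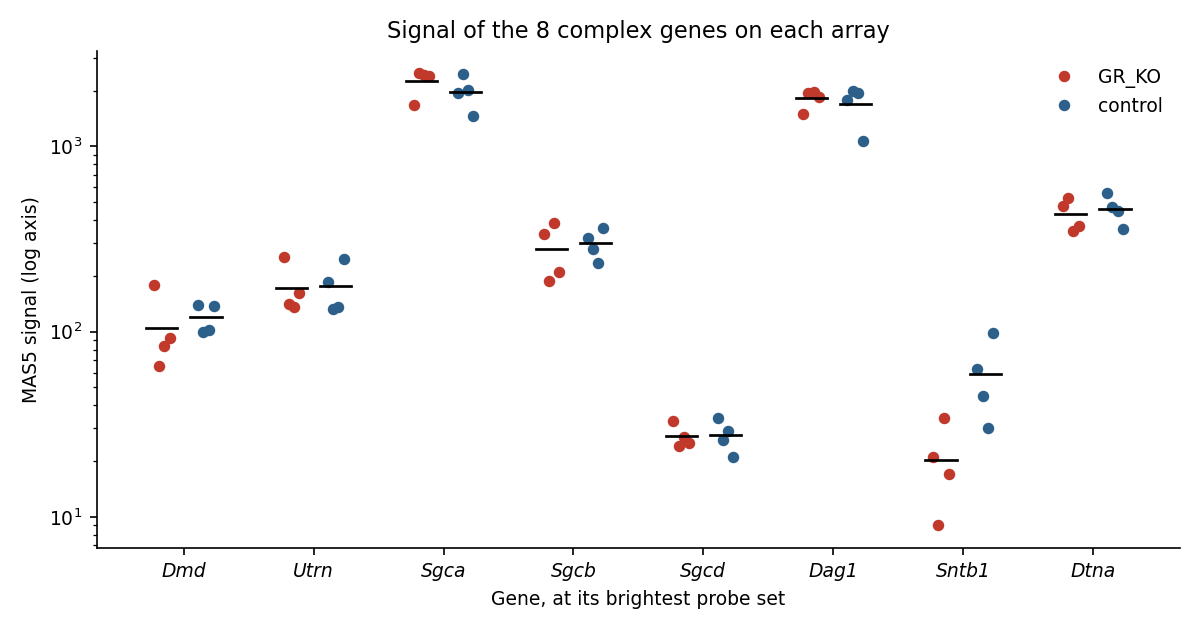
MAS5 signal on each array (log axis) at the brightest probe set of each of the 8 genes, with GR_KO arrays in red on the left, control arrays in blue on the right and group means as bars. The groups overlap for all 8 genes, and Sntb1 has the widest gap between means (20.2 in GR_KO and 59.0 in control). Heights of different genes are not comparable, since each probe set has its own probes.

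The genes of the complex varied between arrays within each group, in patterns that crossed the groups. Over the 8 arrays, 28 pairs of genes were compared at their brightest probe sets on the log2 scale, with exact two-sided permutation tests and Benjamini-Hochberg adjustment over the 28. The genes share the scaling of each array. Utrn and Dag1 ran opposite to each other (Pearson r = -0.87, exact p = 0.00107, adjusted p = 0.0219; Spearman rho = -0.98, exact p = 0.000397, adjusted p = 0.0111, n = 8). The relation held without the 2 arrays farthest from the median of Utrn (r = -0.996). Sgca and Dag1 ran together (r = 0.90, exact p = 0.00156, adjusted p = 0.0219), but Spearman's rho of 0.81 (exact p = 0.0218) had an adjusted p of 0.196. Without the 2 arrays farthest from the median of Sgca, r was 0.59. Utrn and Sgca ran opposite (r = -0.89, exact p = 0.00441, adjusted p = 0.0412), with rho = -0.79 (exact p = 0.0279, adjusted p = 0.196). Without the 2 arrays farthest from the median of Utrn, their r was -0.54. The pair of Dmd and Utrn, with r = 0.82 (exact p = 0.0117) and rho = 0.67 (exact p = 0.0831), did not pass the adjustment (adjusted p = 0.0688 for r and 0.388 for rho). Its r was 0.80 without the 2 arrays farthest from the median of Dmd, which were GR_KO replicates 1 and 2. Control replicate 4 was kept in that value. Without control replicate 4, r was -0.99 for Utrn and Dag1 and 0.85 for Sgca and Dag1. It was then -0.83 for Utrn and Sgca and 0.83 for Dmd and Utrn. In all, 3 of the 28 pairs passed by r and 1 by rho over the 8 arrays. The share of pairs of other genes that would pass on these arrays was not tested. The count therefore shows nothing particular to the complex.

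The 2 arrays at the ends of the relations among Utrn, Sgca and Dag1 were GR_KO replicate 1 and control replicate 4. Relative to the mean of 8 arrays, Utrn was 0.59 higher on the log2 scale on GR_KO replicate 1 and 0.56 higher on control replicate 4. Dag1 had values of -0.20 on GR_KO replicate 1 and -0.69 on control replicate 4. The summed myofibre markers were lowest on GR_KO replicate 1 (104817) and highest on control replicate 4 (240374). The ratio of the 3' to the 5' Gapdh control probe set, a measure of RNA quality, was 0.885 on GR_KO replicate 1 and between 0.797 and 0.915 on the other GR_KO arrays, against 1.20 on control replicate 4 and 0.804 to 0.873 on the other controls. The same ratio for Actb, which placed both arrays within the range of the 8 arrays and not at its end, was 1.75 on GR_KO replicate 1 and 1.07 to 1.84 on the other GR_KO arrays, against 1.73 on control replicate 4 and 0.991 to 1.59 on the other controls. The part of RNA quality or of these arrays' marker levels in the relations was not tested.

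**Figure D4:**
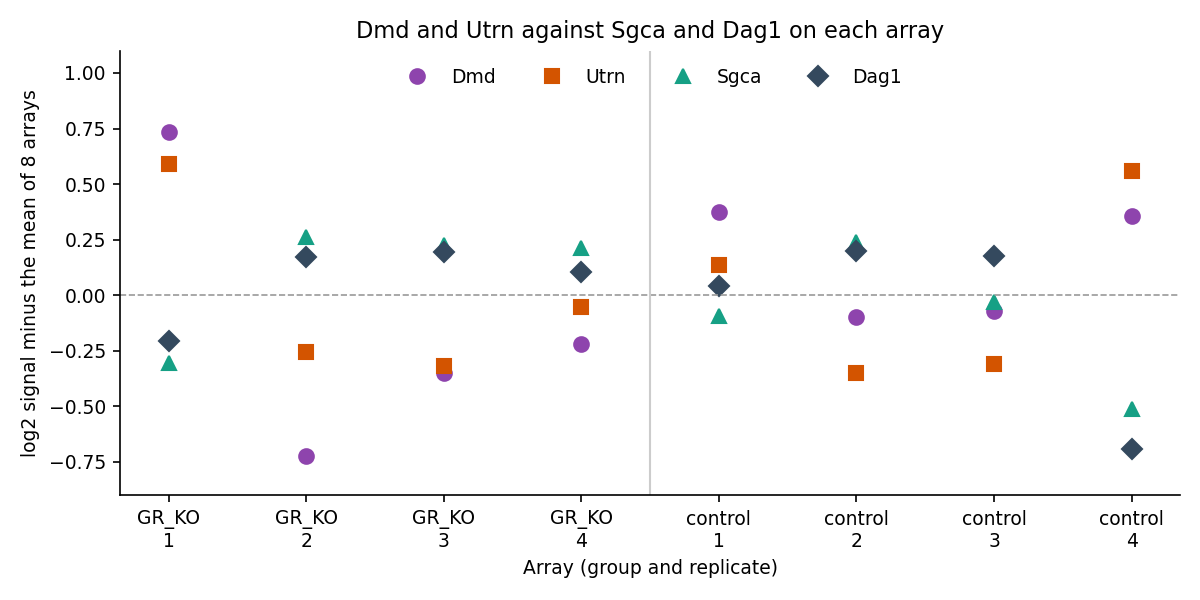
Log2 signal minus the mean of the 8 arrays (vertical axis) at the brightest probe sets of Dmd, Utrn, Sgca and Dag1 on each array, GR_KO replicates on the left and control replicates on the right. On GR_KO replicate 1 and control replicate 4, Dmd and Utrn lie above 0 and Sgca and Dag1 below it.

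The genes whose signals over the 8 arrays were most like those of a complex gene were taken from 19201 bright probe sets of other genes. They are given as a description, since a search over so many candidates picks the highest values. Those most like Dmd were Pid1 (r = 0.99), Insig2 (r = 0.99) and Zc2hc1a (r = 0.98). Those most like Utrn were Gtpbp4, Ncoa2 and Vbp1 (r = 0.99 for each), and those most like Dtna were Zfp790 (r = 0.98), Wdr55 (r = 0.96) and Arhgap22 (r = 0.95).

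Other genes of the complex and its surroundings were followed through 4 lists, of which 49 of 56 genes had a probe set here. None of the 49 passed an adjusted p of 0.05 in limma at its brightest probe set, 15 were below 0 on the log2 scale and 34 above, and 1 had an unadjusted p under 0.05, where 4.32% of all probe sets had. That gene was Nos1, neuronal nitric oxide synthase, which syntrophin anchors to the complex at the fibre membrane. Its brightest probe set, 1429887_at, had signals of 543, 594, 699 and 595 in GR_KO muscle, against 964, 895, 834 and 718 in control muscle. Every GR_KO array lay below every control array, and the log2 fold change was -0.49 ± 0.13 (SE, 95% interval from -0.77 to -0.20, unadjusted p = 0.00400, adjusted p = 0.957 in limma). A further Nos1 probe set, 1438483_at, had 394, 367, 387 and 371 in GR_KO muscle against 723, 668, 600 and 479 in control muscle. The groups again did not overlap (log2 fold change -0.69 ± 0.13, unadjusted p = 0.000658, adjusted p = 0.644 over all probe sets in limma). With any array left out, these log2 fold changes stayed between -0.57 and -0.42 at 1429887_at and between -0.80 and -0.60 at 1438483_at. The dimmer Nos1 probe sets 1422949_at and 1458626_at had -0.48 and -0.65, with overlapping groups.

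The other complex genes measured, 9 of 12 listed, had a median log2 fold change of 0.01. Sntb2, the beta-2 syntrophin gene, had signals of 61, 76, 55 and 92 in GR_KO muscle at 1420372_at, against 33, 75, 52 and 35 in control muscle (log2 fold change 0.60 ± 0.30, unadjusted p = 0.0751 in limma). Its other probe sets did not all point the same way, with 0.72 at 1420371_at and, on dim signals, 0.51 at 1436986_at and -0.55 at 1449840_at. At 1420371_at control replicate 4 had 4, against 23 to 45 on the other controls. Sspn, which encodes sarcospan, a membrane partner of the sarcoglycans, had a log2 fold change of 0.19 ± 0.15, and 0.42 at its other probe set. Dtnb, the beta-dystrobrevin gene, had -0.30 ± 0.26, and 0.02 at its other, dim probe set. None of these 3 passed the test.

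Enzymes that glycosylate dystroglycan for laminin binding, 13 of 17 listed, had a median log2 fold change of 0.06, with 9 above 0 and 4 below. Dpm1, the catalytic subunit of dolichol-phosphate-mannose synthase, had -0.36 ± 0.16 at its brightest probe set and 0.10 at the other. Rxylt1, a xylosyltransferase, had 0.19 ± 0.11, Pomk, the kinase of O-linked mannose, 0.37 ± 0.23, and Pomgnt2, which extends that mannose, 0.18 ± 0.18. The other Pomk probe sets had 0.0014 at 1424003_at and -0.29 at the dim 1447867_x_at, and the other Pomgnt2 probe set had 0.02. Matrix ligands and laminin receptors, 12 of 12, had a median of 0.12, with 11 above 0 and 1 below. Lamb2, the laminin beta-2 chain, had 0.33 ± 0.19, Lama4, the laminin alpha-4 chain, 0.20 ± 0.18, and Hspg2, perlecan, 0.16 ± 0.12. The other probe sets of Lama4 and Hspg2 had 0.07 and 0.10. The gene below 0 was Itgb1, the integrin beta-1 chain, with -0.17 ± 0.16 at its brightest probe set and -0.37 ± 0.17 at the next. Without control replicate 4 the median of the ligand list was 0.02.

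Cytoskeletal partners at the costamere, the membrane attachment of the outer myofibrils, were measured for 15 of 15 genes and had a median log2 fold change of 0.05, with 9 above 0 and 6 below. Ank2, ankyrin B, had -0.33 ± 0.19. Synm, the intermediate filament protein synemin, had 0.24 ± 0.16, Tln2, talin-2, 0.38 ± 0.25, and Plec, plectin, 0.31 ± 0.23. For Tln2, control replicate 4 had 414 there, against 738 to 944 on the other controls. For Plec it had 2417, against 3611 to 4290. The other Tln2 probe sets had -0.02 at 1435700_at and 0.35 at the dim 1429112_at, and the other Plec probe sets 0.14 and 0.26. The medians of the 4 lists lay between 0.01 and 0.12, beside -0.01 over all probe sets. Without control replicate 4 they were 0.02 for the other complex genes, -0.0055 for the glycosylation list and 0.10 for the costamere list.

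**Figure D5:**
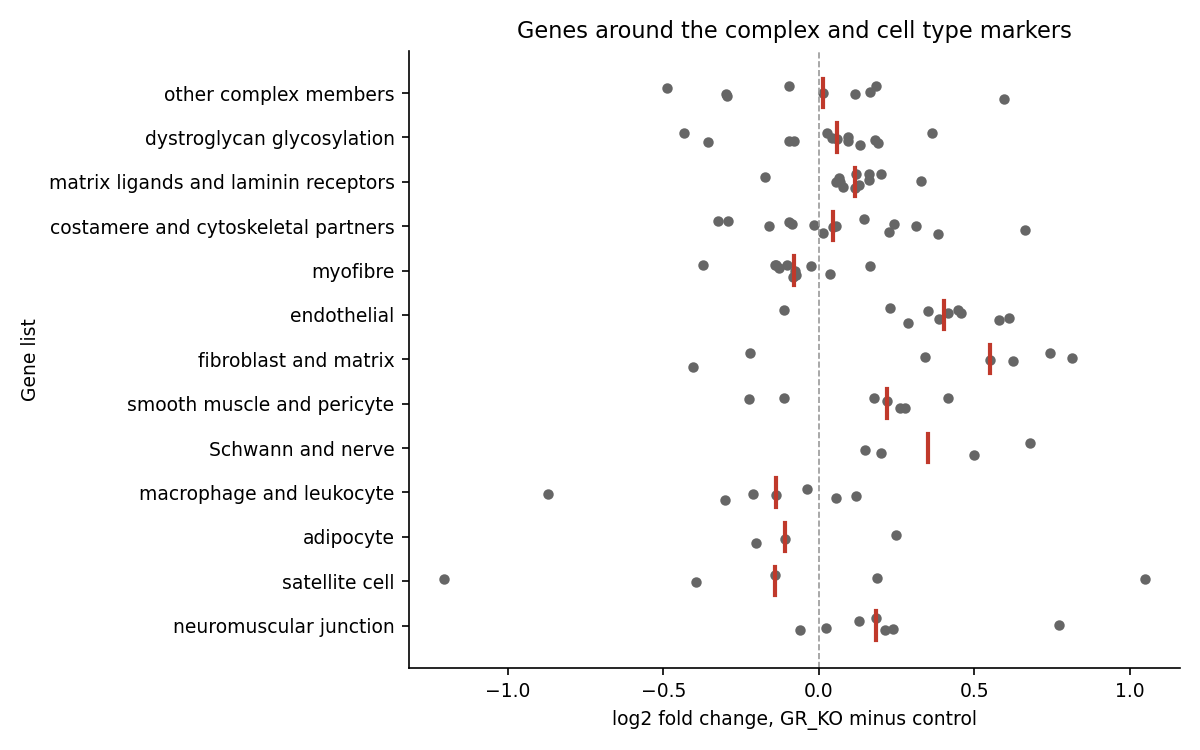
Log2 fold change of GR_KO minus control (horizontal axis) of each gene at its brightest probe set, for the 4 lists around the complex and 9 lists of cell type markers (rows), with the list median as a red bar. Among the lists around the complex the medians lie between 0.01 and 0.12, and the endothelial and fibroblast lists have medians of 0.40 and 0.55 (0.29 and 0.31 without control replicate 4). None of the genes shown passed after adjustment.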

How the data were processed

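The authors deposited MAS5 signal intensity values, 1 column per array, for 45101 probe sets; per the submitters' processing notes the tool was MAS5; its version and scaling target, and any genome build, were not stated there. The deposited values held no decimals. Each array had a mean of 99.96 once 2% of its probe sets were trimmed from either end, which shows scaling to a common level. The median signal per array was 18 to 26. Rounding leaves dim probe sets coarse.

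Array controls (64 probe sets) were left out. Intensities were tested on the log2 scale with no pseudocount. Values of 0 (6388 in all, 1 among the complex genes) were set to the array's smallest positive value, 1. limma 3.58.1 in R 4.3.3 (lmFit, eBayes with trend, two-sided) was fitted to all 45037 probe sets, with Benjamini-Hochberg adjustment over them. No label says whether the samples are separate animals; the p-values therefore reflect only how far these samples spread, which may be technical. The number of arrays limits precision. Symbols came from the platform annotation, updated by gene identifier through RefSeq for 34741 of 34945 single-gene probe sets. Genes of the lists stand at their brightest probe set. Named were all member probe sets, Nr3c1, Fkbp5, up to 4 genes per pathway list with the smallest p, 3 genes each most like Dmd, Utrn and Dtna, and markers. Members and lists were chosen with earlier results of these data known. The fit was tested on simulated data, in 10 runs with 200 changed probe sets each, all above the median signal. It recovered 63.6% of log2 changes of -2, 39.6% of -1.5, 18.6% of -1 and 2.4% of -0.6. Of the calls, 4.75% were false. Alternatives covered normalization, pseudocount, filters, probe set summary, variance prior, array weights, the spike-in covariate, a replicate block and leaving out arrays.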

Additional observations from a re-analysis of the deposited data

Results flagged for a closer look

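Of the 58 groups of 4 arrays behind the 29 probe sets, 5 held an array whose gap to its nearest neighbour took up nearly all of the group's range on the log2 scale; chance gives about 1 in 20 groups. At Sgca 1422654_at, GR_KO replicate 1 had a signal of 1676, against 2403 to 2481 on the other GR_KO arrays. At Dtna 1456069_at, control replicate 4 had 167, against 325 to 358 on the other controls. The other 3 were dim. At Dmd 1430320_at control replicate 3 had 10, against 14 to 15. At Sntb1 1421455_at GR_KO replicate 1 had 1, against 2 on each of the others. At Dtna 1453625_at GR_KO replicate 4 had 0, against 7 to 9.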

How the results depend on the processing

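No probe set of the complex passed an adjusted p of 0.05 under any of the 20 alternatives (smallest adjusted p = 0.710). Over all probe sets the count of calls was 0 in the fit as reported, 1 with median centring and 2 with a pseudocount of 16. It was 5 above the median signal and 4 above the 70th percentile. With the brightest probe set per gene, kept only where above the median signal (11062 tested), it was 6. The count was 1 without the variance trend, 4 with a robust prior, and 0 to 1 with single arrays left out. Of 158 alternative values of the 8 log2 fold changes at the brightest probe sets, 141 kept their direction and 17 reversed, and the cause was not tested. Taking the mean of a gene's probe sets moved Sntb1 from -1.56 to -0.64, Dmd from -0.28 to -0.58, Sgcb from -0.14 to -0.32 and Dtna from -0.09 to -0.04, and a pseudocount of 16 moved Sntb1 to -1.01. Array weights moved Dag1 from 0.13 to 0.03, Dtna to -0.18 and Sgcb to -0.08, the spike-in covariate moved Dag1 to 0.08, quantile normalization moved Dag1 to 0.08 and median centring moved Dtna to -0.06. Outside the fits with an array left out, Sgcd reversed to 0.062 with quantile normalization and 0.029 with median centring. Utrn reversed to 0.012 with median centring, 0.040 with array weights and 0.017 with the spike-in covariate. With single arrays left out, the ranges were -0.073 to 0.23 for Dag1, -0.57 to -0.09 for Dmd, -0.20 to 0.0093 for Dtna, 0.06 to 0.33 for Sgca, -0.32 to 0.029 for Sgcb, -0.12 to 0.11 for Sgcd, -1.86 to -1.23 for Sntb1 and -0.22 to 0.16 for Utrn. The brightest probe sets of Sgcd and Sntb1 lay below the 70th percentile and were not tested under that filter. Without control replicate 4, probe sets of the complex with lower, non-overlapping GR_KO signals numbered 4 instead of 2. Deviations of same-numbered arrays from their group means had r of -0.12, 0.11, 0.09 and -0.38. With 4 arrays per group this cannot decide whether the numbers pair the samples, and no label states a pairing. With a replicate block 0 probe sets were called over all and 0 in the complex. Sntb1 stayed at -1.56 there, with an unadjusted p of 0.0213 in limma.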

Other observations

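Genes of the neuromuscular junction, where utrophin is concentrated, had a median log2 fold change of 0.18 in GR_KO muscle over 7 genes, with 6 above 0, and 0.06 without control replicate 4. The acetylcholine receptor gene Chrna1 had signals of 168, 151, 199 and 236 in GR_KO muscle, against 160, 183, 195 and 146 in control muscle, and the groups overlapped. The kinase gene Musk, which organises the junction, had a log2 fold change of 0.21 ± 0.30, and Ache, acetylcholinesterase, 0.24 ± 0.35. Of 5 satellite cell markers 3 were below 0. Pax7 was above 0, with a log2 fold change of 0.19 ± 0.21, as was the dim Myf5, with 1.05 ± 0.85. Vcam1 and Cdh15 had -0.40 and -0.14. Chrdl2 had dim signals of 7, 5, 10 and 12 in GR_KO muscle against 11, 26, 18 and 23 in control muscle (log2 fold change -1.20 ± 0.45, unadjusted p = 0.0262, adjusted p = 0.957 in limma over all probe sets), and Myf5 was at 0 on control replicate 2.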
